A study of Mus musculus with 4 samples.

Results

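The BCL2 family genes that set the threshold for mitochondrial cell death were followed in cells sorted from mouse tumours. The 8 genes were chosen by name: the anti-apoptotic members Bcl2, Bcl2l1 and Mcl1, the BH3-only members Bcl2l11, Bbc3 and Pmaip1, and the effectors Bax and Bak1. They are 8 of the 32285 genes in both single-cell RNA matrices, and all 8 had counts in both libraries.

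The mice were WT B6 animals carrying a chimeric tumour and the Thy1.2 allele. One group received Thy1.1+ Pmel-1 Tc1 cells and the other Thy1.1+ Pmel-1 Tc9 cells, each by adoptive transfer with adjuvant; Tc1 and Tc9 are CD8 T cells polarised in different cytokines, and Pmel-1 cells carry a receptor for a melanocyte protein. Tumours were taken on day 30 and those of 3 mice were pooled per group, digested at body temperature and sorted for CD4 T cells, so a group has 1 library for RNA and 1 for T-cell receptor (TCR) sequences. No untreated group was analysed here, and a difference between the groups has no replicate check: no test between groups was possible and none is given.

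In this family, anti-apoptotic proteins hold BAX and BAK in check at the mitochondrial surface. BH3-only proteins are the stress sensors that bind and neutralise the anti-apoptotic members, and once BAX or BAK forms pores, cytochrome c is released and caspases are activated. In T cells, BCL2 is known to be maintained by interleukin-7 signalling in resting cells, BCL-XL (the product of Bcl2l1) by activation, and BIM (the product of Bcl2l11) to be the main antagonist of BCL2 when activated cells are removed. MCL1 is a short-lived protein needed by most blood cells, and neutrophils depend on it. PUMA (Bbc3) and NOXA (Pmaip1) are known targets of p53 and of other stress pathways. The counts below are of RNA only, while MCL1 and BIM are also controlled as proteins.

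After filtering, 11933 of 13406 barcodes were kept in the Tc1 library and 8204 of 8449 in the Tc9 library, with medians of 5404 and 5257 unique molecular identifiers (UMIs) per kept barcode. Levels are UMIs of a gene per 1000000 UMIs of a cell class (CPM), and brackets give the exact 95% Poisson interval of that count. These intervals cover counting error only and treat the UMIs of one cell as independent. A level is not compared between genes, since capture differs by gene. The sort was for CD4 T cells, yet the Tc1 library held 1614 effector CD4, 249 Treg-like, 1043 naive-like, 1044 CD8 and 280 NK-like barcodes beside 2836 macrophage-like, 440 dendritic-like, 95 neutrophil-like and 388 melanoma-like ones. The Tc9 library held 5510 effector CD4, 1318 Treg-like, 531 CD8, 121 NK-like and 84 dendritic-like barcodes. Its 23 naive-like, 14 macrophage-like, 15 neutrophil-like and 1 melanoma-like barcodes were too few to give levels, so those classes have values from the Tc1 library alone.

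Treg-like, naive-like, NK-like, cycling and the other "-like" clusters were named from marker lists. Effector CD4 and CD8 are the remaining T-cell clusters, split by whether more barcodes held a Cd4 or a Cd8 UMI. Foxp3, the lineage factor of regulatory T cells and one of the naming markers, had 440 CPM in the Treg-like class of Tc1 and 459 in that of Tc9, against 5.31 and 5.49 in the effector CD4 classes. The effector CD4 class is mostly cluster T3 in the Tc1 library (1383 barcodes) and mostly clusters T4, T12, T13 and T10 in the Tc9 library. T3 carried 4 haemoglobin genes among its 10 leading genes. The summed level of the red-cell gene list was 6049 CPM in Tc1 and 0.839 CPM in Tc9 effector CD4 cells, where 2 of its 4 genes were at 0, and that of 7 macrophage markers was 424 and 19.6 CPM, with no marker at 0. The Tc9 CD8 class is mostly cluster T6, in which 26.6% of barcodes had a Foxp3 UMI and 30.3% a Cd4 UMI; 295 of its 531 class barcodes carried a TCR beta chain found in both libraries, against 36 of 1044 in Tc1. Among all kept and removed barcodes, 148 barcode sequences occurred in both libraries. The part of these features in the results was not tested.

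The proximal promoters of Bcl2 and Bcl2l11 are shown because these genes, an inhibitor of death and its main antagonist, were both high in the naive-like and NK-like cells described below. Each is the 250 bases before a RefSeq start site (GRCm38.p6), 5′ to 3′ on the gene's strand, and capitals mark matches to the motifs searched. The Bcl2 window lies at chr1:106714291-106714540 on the minus strand and the Bcl2l11 window at chr2:128125788-128126037 on the plus strand. Bcl2l11 has a second listed start, whose window (chr2:128127325-128127574) is not printed.
Bcl2: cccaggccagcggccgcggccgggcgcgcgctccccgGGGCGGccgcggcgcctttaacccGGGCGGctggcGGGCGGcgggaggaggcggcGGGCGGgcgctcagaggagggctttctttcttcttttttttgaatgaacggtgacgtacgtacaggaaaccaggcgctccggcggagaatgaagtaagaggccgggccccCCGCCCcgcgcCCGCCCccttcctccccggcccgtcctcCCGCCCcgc
Bcl2l11: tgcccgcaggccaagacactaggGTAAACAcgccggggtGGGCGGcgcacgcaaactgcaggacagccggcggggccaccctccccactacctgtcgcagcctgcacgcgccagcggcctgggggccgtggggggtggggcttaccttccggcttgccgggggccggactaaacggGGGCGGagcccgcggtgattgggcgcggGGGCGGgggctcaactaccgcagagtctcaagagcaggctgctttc

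Both windows are rich in G and C (74.8% in Bcl2 and 72.0% in Bcl2l11). The Bcl2 window held 7 GC boxes (GGGCGG, on either strand) and the Bcl2l11 window 3, a motif present in 32.7% of 32851 windows of the same length. The Bcl2l11 window also held 1 match to the forkhead (FOXO) motif GTAAACA, which 3.17% of windows held and the Bcl2 window did not. Neither window held the STAT motif TTCNNNGAA (7.02% of windows), the cyclic AMP element TGACGTCA (1.55%), the AP-1 motif TGANTCA (6.75%) or a TATA box (TATAAA, 12.4%). Each motif was searched on both strands. The second Bcl2l11 window held 2 GC boxes and no match to the other motifs. A match describes the letters and is not a site of binding.

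Bcl2, the founding survival gene of the family, was, among the named classes, highest in naive-like and NK-like cells and low in Treg-like cells. In the Tc1 library its level was 389 CPM (372 to 406) in naive-like and 381 CPM (354 to 409.8) in NK-like cells, which did not differ beyond their intervals. It was 115 CPM (106 to 124) in effector CD4 and 109 CPM (101 to 117) in CD8 cells, again overlapping. The other classes followed here lay below these: 52.7 CPM in dendritic-like, 48.4 in cycling, 43.5 in macrophage-like, 35.9 (27.0 to 46.8) in Treg-like, 30.8 in melanoma-like and 15.1 (5.5 to 32.9, from 6 UMIs) in neutrophil-like barcodes, each overlapping its neighbour in this order. Naive-like barcodes with a Cd4 but no Cd8 UMI (402 CPM) and those with a Cd8 but no Cd4 UMI (370 CPM) overlapped as well, so the high level was not that of one lineage.

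NK-like cells were the highest named class in the Tc9 library too, where each of the 6 classes compared had more Bcl2 than its Tc1 counterpart: 477 CPM (437 to 519) in NK-like, 203 CPM (191 to 215) in CD8, 158 CPM (154 to 163) in effector CD4, 125 CPM in cycling and 81.6 CPM (75.7 to 87.8) in Treg-like cells. Treg-like cells had the lowest value of the T-cell classes in both libraries, although in Tc1 their interval overlapped that of cycling cells. Within each library they were below effector CD4 cells, by a log2 ratio of -1.68 (-2.11 to -1.28) in Tc1 and -0.96 (-1.07 to -0.84) in Tc9. The same was seen per cell. After each cell was thinned to 2000 UMIs, Bcl2 was detected in 6.44% of Tc1 and 10.8% of Tc9 Treg-like cells, in 17.1% and 21.5% of effector CD4 cells, in 41.0% of naive-like cells and in 3.15% of macrophage-like barcodes without a Cd3 UMI, a class that should lack most T-cell RNA. Before thinning these shares were 14.5%, 24.4%, 25.6%, 37.1%, 63.2% and 7.76%, at median depths of 4511, 5398, 3154, 5169, 4569 and 4616 UMIs.

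**Figure D1:**
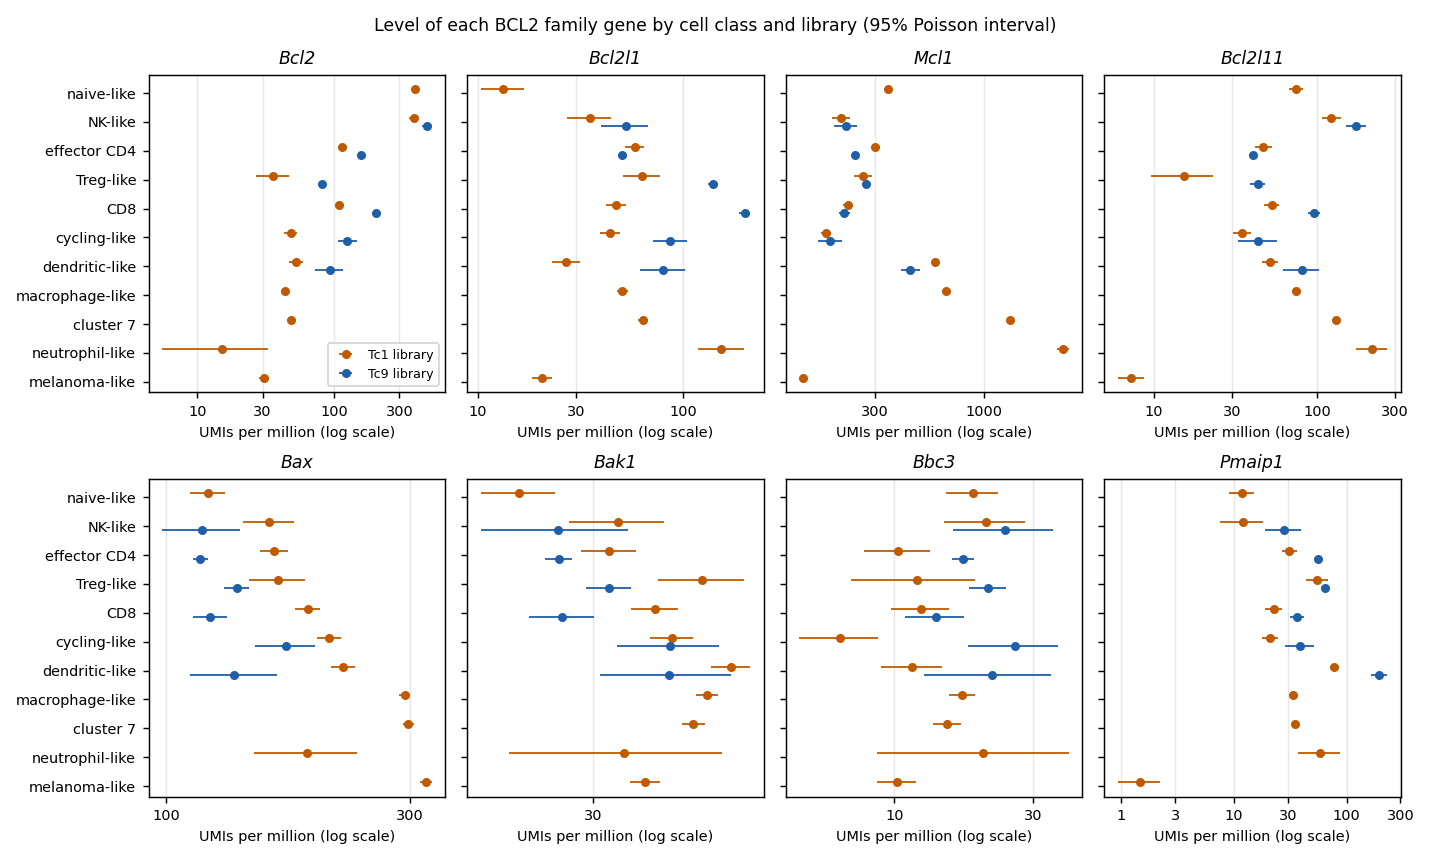
Levels of the 8 genes (CPM, log axis, 1 panel per gene) in each cell class, with Tc1 and Tc9 libraries in different colours and bars giving 95% Poisson intervals. Bcl2 peaks in naive-like and NK-like cells, and Mcl1 in neutrophil-like barcodes at 2403 CPM.

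Bcl2l1, whose product BCL-XL protects activated and stressed cells, ran against Bcl2 in naive-like cells. It was 13.3 CPM (10.3 to 16.8) there and 58.1 CPM (52.0 to 64.6) in Tc1 effector CD4 cells, a log2 ratio of -2.13 (-2.52 to -1.76), while Bcl2 was higher in the naive-like cells by 1.76 (1.63 to 1.89). In the Tc1 library the other T-cell classes lay closer to effector CD4 cells, with 63.1 CPM (51.1 to 77.2) in Treg-like, 47.2 CPM in CD8 and 44.2 CPM in cycling cells, and neutrophil-like barcodes were highest at 154 CPM (118 to 197). In the Tc9 library 2 classes stood out: 200.02 CPM (188 to 212) in CD8 and 139 CPM (132 to 147) in Treg-like cells, against 50.7 CPM (48.2 to 53.3) in effector CD4 cells. Treg-like cells of the Tc9 library therefore had less Bcl2 and more Bcl2l1 than the effector CD4 cells of the same library, the latter by 1.46 (1.35 to 1.57).

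Mcl1 was higher in each myeloid class of Tc1, taken whole, than in any of its T-cell classes. It was 2403 CPM (2253 to 2561) in neutrophil-like barcodes, 661 CPM (650.4 to 672) in macrophage-like, 588 CPM (568 to 607) in dendritic-like and 136 CPM (131 to 142) in melanoma-like barcodes of the Tc1 library. A further 1950 Tc1 barcodes formed a cluster (numbered 7) led by Cxcl3, Thbs1, Arg1 and Cd14 that was left unnamed, and its Mcl1 level was 1335 CPM (1320 to 1351). Parts of the myeloid classes were in the range of T cells. Macrophage-like cluster 15, with 1125 of the 2836 barcodes, had 341 CPM, and dendritic-like cluster 22, with 72 Tc1 barcodes, had 303 CPM. Among the T-cell classes of at least 50 barcodes Mcl1 ran from 176 CPM in cycling to 349 CPM in naive-like cells in Tc1, and from 184 CPM in cycling to 273 CPM in Treg-like cells in Tc9. The naive-like barcodes with Cd4 alone had 503 CPM (456 to 555), above the 264 CPM (245 to 284) of those with Cd8 alone.

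Bcl2l11, which encodes BIM, was high where Bcl2 was high among lymphocytes. In the Tc1 library it was 122 CPM (107 to 139) in NK-like and 74.3 CPM (67.1 to 82.0) in naive-like cells, against 46.9 CPM (41.5 to 52.8) in effector CD4 and 15.3 CPM (9.7 to 22.9, from 23 UMIs) in Treg-like cells. In the Tc9 library NK-like cells had 174 CPM (150.2 to 199.9), CD8 cells 95.4 CPM, Treg-like cells 43.3 CPM and effector CD4 cells 40.5 CPM (38.2 to 42.8). Some myeloid barcodes of Tc1 combined more Bcl2l11 than effector CD4 cells with low Bcl2, at 217 CPM (173 to 268) in neutrophil-like, 131 CPM in cluster 7 and 74.1 CPM in macrophage-like barcodes. Dendritic-like barcodes were at 51.3 CPM (45.7 to 57.3), overlapping effector CD4 cells, and macrophage-like cluster 15, with 1125 of the 2836 barcodes, was at 17.7 CPM. Melanoma-like barcodes had 7.29 CPM. Within effector CD4 and naive-like cells of Tc1, having a Bcl2 UMI made little difference to detecting Bcl2l11: at 2000 UMIs per cell, Bcl2l11 was detected in 7.35% of Tc1 effector CD4 cells with a Bcl2 UMI and in 7.42% of those without, and in 12.75% and 14.1% of naive-like cells, with overlapping intervals.

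Bbc3 and Pmaip1, the p53-linked BH3-only genes, differed in how widely they were found. Bbc3 ranged over these classes from 6.50 CPM in Tc1 cycling cells to 26.0 CPM in Tc9 cycling cells, so both ends were the same class. Pmaip1 ranged from 1.46 CPM (0.9 to 2.2) in melanoma-like barcodes to 195 CPM (165 to 228) in Tc9 dendritic-like barcodes. The 23 melanoma-like UMIs of Pmaip1 fell to 4 once barcodes with a Cd3 UMI were left out, a level of 0.361 CPM (0.1 to 0.9). The lymphocyte classes highest in Bcl2 were lowest in Pmaip1: in Tc1 it was 54.5 CPM (43.3 to 67.6) in Treg-like, 31.0 CPM in effector CD4, 22.5 CPM in CD8, 11.9 CPM in NK-like and 11.7 CPM (9.0 to 15.1) in naive-like cells. The first of these stood apart and the last 2 overlapped.

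Bax and Bak1 encode the pore-forming effectors, and their levels in Tc1 varied less between these classes than those of the survival genes did. Bax was 121 CPM (112 to 130.4) in naive-like, 163 CPM in effector CD4, 165 CPM in Treg-like, 189.5 CPM in CD8, 294 CPM (286 to 301) in macrophage-like and 322 CPM (314 to 331) in melanoma-like barcodes of Tc1. In the Tc9 library it lay between 117 CPM in effector CD4 and 172 CPM in cycling cells. Bak1 lay between 20.3 CPM in naive-like and 61.9 CPM in dendritic-like barcodes of Tc1, and between 24.9 and 44.9 CPM in the Tc9 classes. Melanoma-like barcodes thus combined the highest Bax level with low levels of Bcl2, Bcl2l1, Mcl1, Bcl2l11 and Pmaip1.

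A gene was counted as higher or lower past 1.5-fold, among genes of at least 10 CPM in one of the classes compared. In naive-like against effector CD4 cells of Tc1, 6 of the 8 genes passed that fold, 3 higher (Bcl2, Bcl2l11, Bbc3) and 3 lower (Bcl2l1, Bak1, Pmaip1), where 30.4% of all 8140 genes did, 7.97% higher and 22.5% lower. The Pmaip1 log2 ratio was -1.40 (-1.84 to -0.98), and both classes carried red-cell RNA (4029 and 6049 CPM). In NK-like against effector CD4 cells Bcl2 was higher by 1.73 (1.58 to 1.88) in Tc1 and 1.59 (1.46 to 1.72) in Tc9, and Bcl2l11 by 1.38 and 2.10; with Bbc3 higher in Tc1, 5 of 8 genes passed the fold in Tc1 (26.5% of all genes) and 3 of 8 in Tc9 (26.6%). The NK-like cluster is a mixed one by its markers, since 78% of its barcodes held a Cd3 UMI. Treg-like against effector CD4 cells gave 4 of 8 in Tc1 (26.0% of all genes, 14.7% higher and 11.3% lower) and 2 of 8 in Tc9 (17.7%, 3.71% lower): beside the Bcl2 values above, Bcl2l11 was lower (-1.62, -2.30 to -1.003) and Bak1 and Pmaip1 higher in Tc1 only by this fold, a difference between libraries that was not tested. These 3 calls did not hold in all 11 alternatives: Bak1 went down to 0.33 and was past the fold in 7, and Bcl2l11 (to -0.55) and Pmaip1 (to 0.34) were past it in 10.

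Outside the T cells the background of changed genes was much larger. Macrophage-like against effector CD4 barcodes gave 6 of 8 genes past the fold (55.8% of all genes), neutrophil-like 6 of 8 (70.7%), cluster 7 5 of 8 (58.8%) and melanoma-like 6 of 8 (70.2%). Mcl1 and Bcl2 had the same directions in these 3 myeloid sets. Mcl1 was higher by 1.13, 2.99 and 2.14 in macrophage-like, neutrophil-like and cluster 7 barcodes, and Bcl2 lower by log2 ratios of -1.40, -2.93 and -1.26. In melanoma-like barcodes Bax was higher by 0.99 (0.89 to 1.09), and the other 5 genes that passed were lower.

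**Figure D2:**
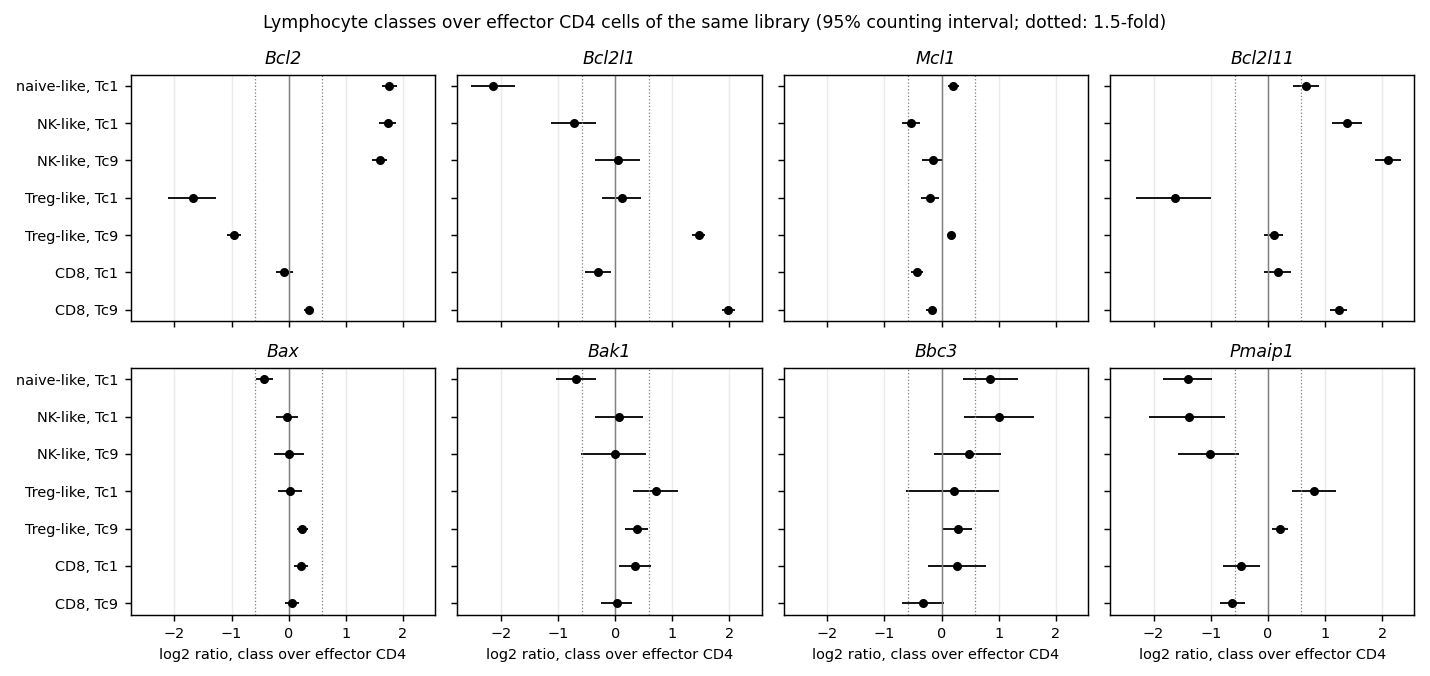
Log2 ratio of each gene in each class over effector CD4 cells of the same library, with 95% intervals and lines at 1.5-fold. Naive-like and NK-like cells lie above for Bcl2 and Bcl2l11 and below for Pmaip1; Treg-like cells lie below for Bcl2 in both libraries.

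The balance between family members was then read as the share of one gene in the UMIs of a pair, compared between classes and not between genes. The share of Bcl2 in Bcl2 plus Mcl1 was 64.7% in NK-like and 52.7% in naive-like cells of Tc1, 27.5% in effector CD4, 11.9% in Treg-like, 6.17% in macrophage-like and 0.625% (0.2 to 1.4) in neutrophil-like barcodes. In Tc9 it was 68.6% in NK-like, 48.5% in CD8, 39.5% in effector CD4 and 23.03% in Treg-like cells. The lymphoid classes therefore spread over most of the range, and the myeloid ones lay near the Mcl1 end. Without barcodes holding a Cd3 UMI, the macrophage-like Bcl2 level dropped from 43.5 to 17.0 CPM and its share to 2.39%. The share of Bcl2l11 in Bcl2l11 plus Bcl2 lay between 16.0% in naive-like and 41.8% (37.7 to 46.1) in Tc1 cycling cells among the named T-cell and NK-like classes. In Tc1 it was 49.3% in dendritic-like, 63.0% in macrophage-like, 73.1% in cluster 7 and 93.5% in neutrophil-like barcodes.

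**Figure D3:**
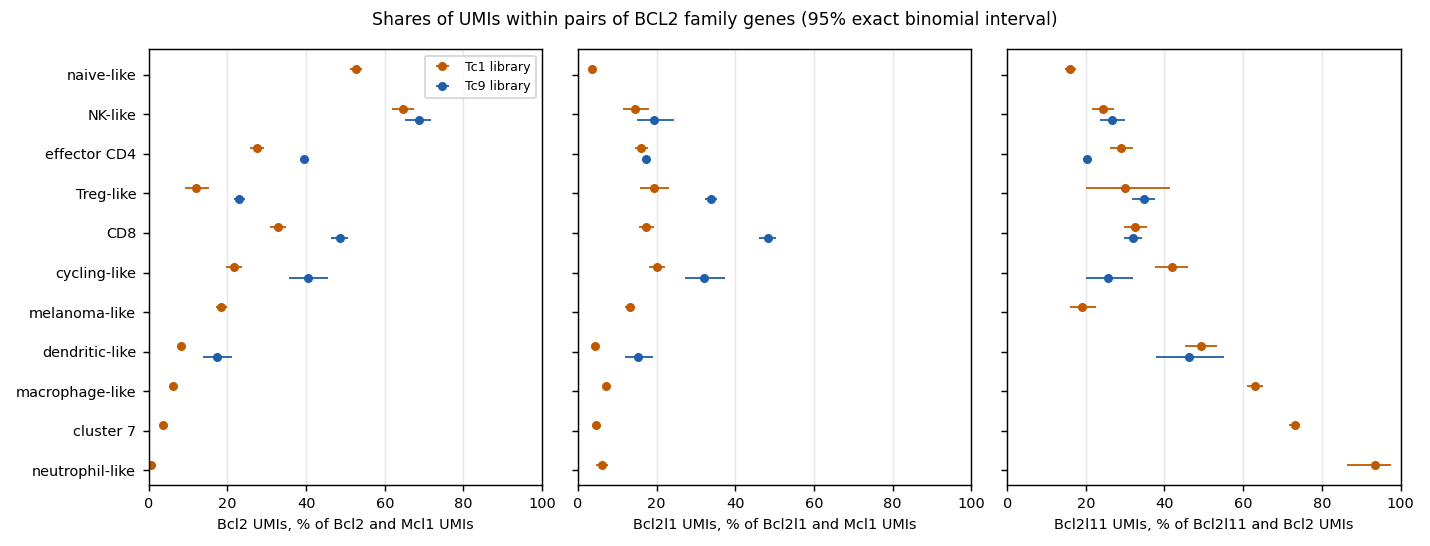
Share of one gene in the UMIs of a gene pair (percent), by class and library, with 95% exact binomial intervals. The Bcl2 share of Bcl2 plus Mcl1 runs from 0.625% in neutrophil-like to 68.6% in Tc9 NK-like barcodes.

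The comparison the study was built for is Tc9 against Tc1. In effector CD4 cells 2 of the 8 genes were past 1.5-fold, both higher and both BH3-only, where 24.8% of 7941 genes were past it, 5.62% higher and 19.1% lower. Pmaip1 was 55.8 CPM (53.2 to 58.5) in Tc9 against 31.0 (26.6 to 35.9) in Tc1, a log2 ratio of 0.85 (0.63 to 1.08). Bbc3 was 17.2 CPM against 10.3, a log2 ratio of 0.75 (0.36 to 1.16). The Bcl2 ratio was 0.46 (0.35 to 0.58), Mcl1 -0.32, Bcl2l11 -0.21, Bcl2l1 -0.20, Bax -0.48 and Bak1 -0.38. The median over the 8 genes was -0.21 and that over all genes -0.16, so scaling to the median gene adds 0.16 to each value and takes Bcl2 past the fold.

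Since T3 is led by haemoglobin genes, the clusters are also given by number. Pmaip1 was 33.9 CPM in T3 of the Tc1 library and 50.1, 59.9, 66.8 and 44.3 CPM in T4, T12, T13 and T10 of the Tc9 library. All 4 Tc9 clusters lay above T3. Bcl2 was 111 CPM in T3 and 199, 154, 113 and 139 CPM in the same 4, so T13, which is led by Il13, Il1rl1 and Il5, had the T3 level. Bbc3 was 10.4 CPM in T3 and 19.7, 17.3, 12.1 and 19.7 CPM in the others. The interferon-response cluster T14 drew 161 Tc1 and 102 Tc9 barcodes and is the effector cluster with more than 100 of both: there Pmaip1 was 20.1 and 49.7 CPM (log2 1.31, 0.37 to 2.31), the Bbc3 ratio was 0.72 (-0.996 to 2.53) from 6 and 8 UMIs, and 3 of 8 genes passed the fold against 43.4% of all genes. T14 was not alike in the 2 libraries: CD8 markers stood at 932 CPM in its Tc1 part and 28.2 in its Tc9 part, NK markers at 452 and 29.8 CPM and Cd4 at 133 and 295 CPM, and 33.1% of its barcodes held a Cd8 UMI. Their part in these ratios was not tested. Leaving out barcodes with any UMI of Hbb-bs, Hba-a1, Lyz2, C1qa, C1qb or Pmel (haemoglobin, macrophage and melanocyte genes), which left 540 in Tc1, the effector CD4 ratios were 0.63 for Pmaip1 and 0.87 for Bbc3. Among class barcodes that also held Cd3 and Cd4 and no Cd8 or Foxp3 UMIs, the Pmaip1 ratio was 0.83 and that of Bbc3 0.41, below the fold; with that gate over all barcodes they were 0.49 and 0.55.

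**Figure D4:**
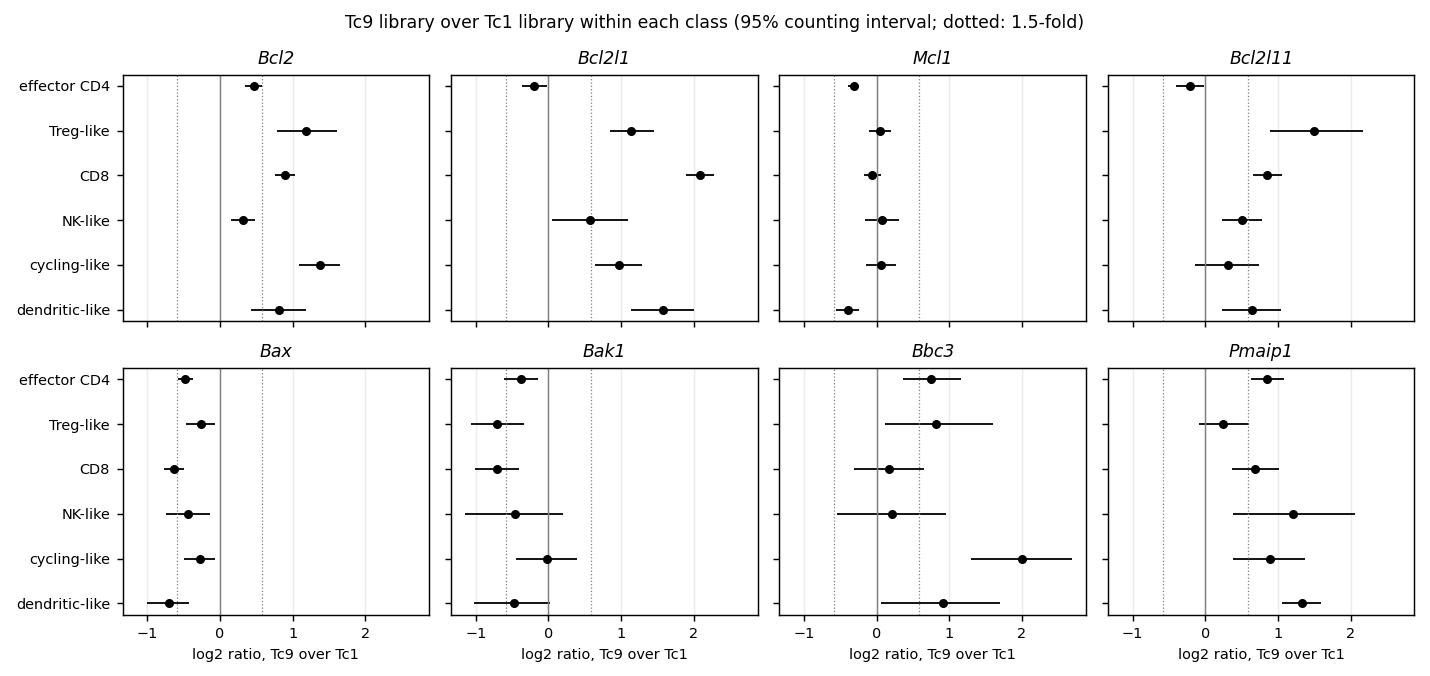
Log2 ratio of Tc9 over Tc1 for each of the 8 genes in each class present in both libraries, with 95% intervals and lines at 1.5-fold. Mcl1 lies between -0.40 and 0.07 in the effector CD4, Treg-like, CD8, NK-like, cycling and dendritic-like classes, while Bcl2 lies above 0 in all of them.

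Treg-like cells differed between the libraries in more of the 8 genes. Past the fold were 5 of 8, 4 higher and 1 lower, where 36.2% of 8238 genes were, 16.1% higher and 20.1% lower. Bcl2 was 35.9 CPM in Tc1 and 81.6 in Tc9, a log2 ratio of 1.18 (0.78 to 1.61), and Bcl2l1 63.1 and 139 CPM, a ratio of 1.14 (0.84 to 1.46). Bcl2l11 was 15.3 and 43.3 CPM (1.503, 0.90 to 2.18), Bbc3 12.0 and 21.0 CPM (0.81, 0.11 to 1.60), and Bak1 53.2 and 32.5 CPM (-0.71, -1.07 to -0.33). Survival genes and the BIM gene were thus higher together, while Mcl1 was level at 264 and 273 CPM (log2 0.04, but -0.96 with the UMI gate described next). Tc1 Treg-like cells are mostly cluster T0 (215 barcodes) and Tc9 ones cluster T15 (1312), and the macrophage marker sum was 316 CPM in the first class and 19.8 in the second. When Treg cells were instead taken as barcodes with Cd3 and Foxp3 and no Cd8 UMIs, of which 157 of 331 in Tc1 lay in the Treg-like class, the Bcl2l11 ratio was -0.0365. Within the class that gate gave 1.77. Across the alternatives Bcl2 stayed between 0.75 and 1.28 and Bcl2l1 between 0.80 and 1.31. No alternative was set to compare the libraries within 1 cluster. T0 held 79 of the 95 Bcl2l1 UMIs of the Tc1 class, at 58.0 CPM, and T15 drew 34 Tc1 barcodes, too few to give levels. The part of the clusters in these ratios was not tested.

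CD8 cells had the widest gap of any T-cell class in Bcl2l1, 47.2 CPM (42.0 to 52.9) in Tc1 and 200.02 CPM (188 to 212) in Tc9, a log2 ratio of 2.08 (1.90 to 2.27). With Bcl2 (0.89), Bcl2l11 (0.86) and Pmaip1 (0.69) higher and Bax (-0.64) and Bak1 (-0.70) lower, 6 of 8 genes passed the fold, where 39.5% of all genes did (17.8% higher and 21.6% lower). The classes rest on cluster T1 in Tc1 and T6 in Tc9. T1 held 992 of the 1044 Tc1 barcodes but 201 of the 298 Bcl2l1 and 254 of the 333 Bcl2l11 UMIs. Its levels were 35.9 and 45.3 CPM. A further 43 Tc1 barcodes lay in T16, which shared the leading genes Ccl1, Crtam and Csf2 with T6 and was not compared with it. Effector markers had 17735 CPM in Tc1 and 3100 in Tc9, NK markers 1908 and 131, and Treg markers 403 and 1606. Their part in the ratios was not tested. Without barcodes holding a Cd4 or Foxp3 UMI, 302 remained in Tc9 and the Bcl2l1 ratio was 2.01. Without barcodes carrying a shared TCR beta chain, 236 remained and it was 2.43, though barcodes with no beta chain detected were kept. Pmaip1 did not hold this way: it was 0.50 without Cd4 or Foxp3 barcodes. It was -1.40 after subtraction of an estimate of free RNA from outside the cell, set from macrophage and melanoma markers at 58.2% of the Tc9 class. That estimate took the sum of all barcodes of the library, cells included, as free RNA. The subtraction therefore also takes out RNA of the cells themselves and cannot decide the call.

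In the other classes the pattern was partly shared. NK-like cells had 1 of 8 genes past the fold, Pmaip1 (1.21, 0.39 to 2.06; 11.9 and 27.6 CPM), where 32.3% of all genes were, 14.9% higher. That ratio was -0.10 without barcodes holding haemoglobin, macrophage or Pmel UMIs. The NK-like class also differed in its markers, with T-cell markers at 2048 CPM in Tc1 and 676 in Tc9, NK markers at 1719 and 2849.7 CPM and macrophage markers at 739.7 and 103 CPM. Cycling cells had 4 of 8 past it (40.3% of all genes, 20.1% higher), all higher in Tc9: Bcl2 1.37, Bcl2l1 0.97, Bbc3 1.999 and Pmaip1 0.89. The Bcl2l1 ratio was -0.40 once cells were thinned to 2000 UMIs. The lineages of the cycling class differed between libraries, with CD8 markers at 998 CPM in Tc1 and 74.8 in Tc9, Cd4 at 34.3 and 133 CPM and Treg markers at 694 and 1539 CPM, and their part in the ratios was not tested. Dendritic-like barcodes had 6 of 8 (45.5%, of which 27.4% higher and 18.1% lower), with Bcl2l1 higher by 1.57 and Pmaip1 by 1.33 and Bax lower by a ratio of -0.70. In this class 234 of 440 Tc1 and 41 of 84 Tc9 barcodes held no Cd3 UMI. In those of Tc1, Bcl2l1 was 15.3 CPM and Pmaip1 101, against 26.9 and 77.7 in the whole class. Macrophage markers stood at 2682 CPM in Tc1 and 283 in Tc9. Clusters 9, 10 and 22 gave 298, 70 and 72 barcodes in Tc1 and 58, 24 and 2 in Tc9. The part of this makeup in the dendritic-like ratios was not tested. Pmaip1 and Bbc3 had positive ratios in all 6 classes compared, and Bax had negative ratios in all 6, though not under every alternative: Bbc3 went down to -0.26 in Treg-like, -0.64 in CD8 and -0.30 in NK-like cells, Pmaip1 to -1.40 in CD8 and -0.10 in NK-like cells, and Bax up to 0.30 in NK-like cells. Each of these is a ratio of the same pair of libraries and no independent repeat.

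The genes around the family were read from 3 lists. Of 15 other family genes 7 could be compared in effector CD4 cells, with 0 higher and 1 lower in Tc9 past the fold, where 5.62% and 19.1% of all genes were: Bnip3, a mitophagy gene induced by hypoxia, at 6.78 CPM in Tc9 and 32.4 in Tc1 (log2 -2.26). Bcl2a1d had 249.9 and 197 CPM, a ratio of 0.35, and shares reads with near-identical copies, so its level is uncertain. Of 15 other genes of the mitochondrial death pathway 13 were compared, with 0 higher and 4 lower past the fold, among them Htra2 (-0.68), Vdac2 (-0.60) and Diablo (-0.59). Their median was -0.53, against -0.16 over all genes. Of 22 upstream regulators 21 were compared, with 3 higher (Tnfrsf10b, Il2ra, Pim1) and 4 lower (Ddit3, Fas, Trp53, Il2rg) and a median of 0.18. The 4 of 21 lower are close to the 19.1% of all genes. Pim1 and Il2rg are named here after their values were seen. Tnfrsf10b, a death receptor, was 14.3 CPM in Tc9 and 5.82 in Tc1 (1.29), Il2ra, the interleukin-2 receptor alpha chain, 89.3 and 36.5 CPM (1.29), and Trp53, which encodes p53, 59.4 and 93.0 CPM (-0.65). Ddit3 (-0.92) and Fas (-0.74) were lower too, and Il7r, the interleukin-7 receptor, had 316 and 249.9 CPM, a ratio of 0.34. Il2ra was higher in Tc9 also among Treg-like (848 and 325 CPM) and CD8 cells (465 and 44.8 CPM), which both had Bcl2l1 ratios above 1. In effector CD4 cells, with Il2ra higher too, the Bcl2l1 ratio was -0.20. Il2ra is also one of the markers that named the Treg-like class, and a link between these genes was not tested. The Il2ra ratio in effector CD4 cells became -0.32 after subtraction of the free-RNA estimate, which also takes out RNA of the cells themselves. Il2rg had 362 and 549.6 CPM.

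Clonotypes were read from the TCR libraries, and in effector CD4 cells Bcl2l1 and Pmaip1 were higher in the larger ones. Clonotype size was counted within a class and library, so cells of the same clonotype in other classes were not counted. Among Tc9 effector CD4 cells, 931 cells in 100 clonotypes of at least 3 cells were set against 247 cells whose clonotype was seen once there. Bcl2l1 was 58.1 CPM in the former and 34.7 in the latter (log2 0.74, 0.33 to 1.17), and the Pmaip1 ratio was 0.63. These were 2 of 8 genes past the fold, where 12.0% of all genes were, 4.68% higher. In Tc1, 366 cells of 44 clonotypes against 162 single cells gave 59.0 and 36.8 CPM for Bcl2l1 (0.68, 0.03 to 1.38) and a Pmaip1 ratio of 0.97, and Bbc3 was lower (-0.83, -2.07 to 0.44), so 3 of 8 passed where 21.5% of all genes did. The Bcl2 ratio was -0.23 in Tc9 and -0.41 in Tc1. In Tc1 CD8 cells both intervals spanned 0: 472 cells of 31 clonotypes against 73 single cells gave 0.32 (-0.41 to 1.15) for Bcl2l1 and -0.62 (-1.46 to 0.31) for Pmaip1. Cells of a clonotype share a source, and the largest held 83 cells in Tc9 and 59 in Tc1. Both genes also varied between the Tc9 effector clusters T10, T4, T12 and T13. In that order Bcl2l1 was 34.7, 43.7, 56.5 and 65.7 CPM and Pmaip1 44.3, 50.1, 59.9 and 66.8 CPM. The clusters of the expanded and single cells were not compared, and their part in these ratios was not tested.

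Bcl2 calls for a remark on what was counted. The gene spans 176115 bases (chr1:106538176-106714290, GRCm38.p6), most of it intron, and whether intronic reads were counted is not given in the sources used here. Genes spanning at least 100 kb took 11.8% of UMIs in Tc1 and 12.3% in Tc9 effector CD4 cells, 10.9% and 13.5% in Treg-like cells, 10.7% in naive-like and 10.5% and 11.1% in NK-like cells. They were 10.1% and 11.2% in CD8, 7.99% and 10.6% in cycling and 9.53% and 11.9% in dendritic-like barcodes. Within a library these shares did not order the classes as Bcl2 did. Between libraries the share was higher in Tc9 in each of the 6 classes compared, as the Bcl2 level was. The part of long genes in the Bcl2 ratios was not tested. One T-cell cluster stood apart: T11, with 271 Tc1 and 218 Tc9 barcodes led by Maml2, Pde3b and Lncpint and left unnamed, drew 30.4% of its UMIs from such genes in each library. Its Bcl2 level was 1109.5 CPM in Tc1 and 523 CPM in Tc9, and its Bax level 47.9 and 16.1 CPM. Between libraries 5 of the 6 genes that could be compared there passed the fold (40.5% of all genes, 27.7% lower), and Bcl2 (-1.09), Mcl1 (-0.83), Bcl2l11 (-0.60) and Bax (-1.57) were lower in Tc9, while Pmaip1 (1.57, 0.89 to 2.30) was higher. CD8 markers of T11 stood at 484 CPM in Tc1 and 37.0 in Tc9, and Cd4 at 154 and 532 CPM.

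**Figure D5:**
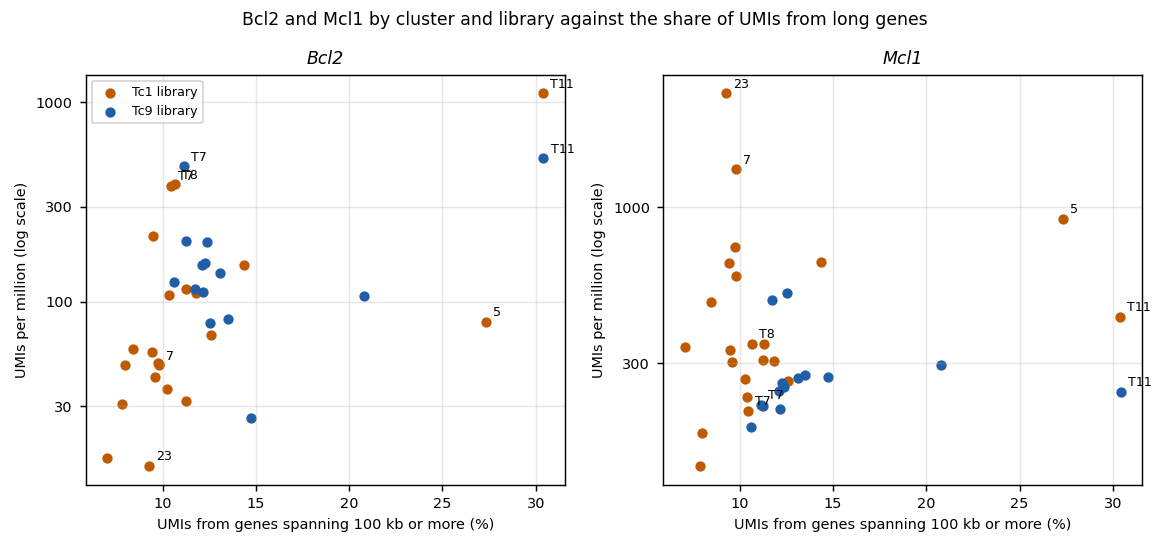
Bcl2 and Mcl1 levels (CPM, log axis, 1 panel per gene) against the percentage of UMIs from genes spanning at least 100 kb. Each point is a cluster in a library with at least 50 barcodes. T11 stands at 30.4% with the highest Bcl2 levels, while naive-like and NK-like cells reach 381 CPM or more at 10.5% to 11.1%.

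The genes most like each member across 19 class-by-library points, by Pearson correlation of log2 CPM among 7139 genes, were picked by rank. The points share libraries and depth, so the correlations only describe. For Bcl2 they were the ribosomal genes Rps24 (0.88), Rpl23 (0.88) and Rps23 (0.86), for Mcl1 Csf3r (0.93), the receptor for the neutrophil growth factor G-CSF, and for Pmaip1 Dapp1 (0.92), Taok3 (0.91) and the kinase gene Pim1 (0.91). Csf3r is also one of the markers that named the neutrophil-like class, the point with the highest Mcl1 level. Bcl2l1 was nearest to Cwc25 (0.84), Bcl2l11 to Chka (0.81), Bax to Snx1 (0.92), Bak1 to Wdr1 (0.87) and Bbc3 to Map2k4 (0.79).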

How the data were processed

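The deposited RNA matrices hold UMI counts per gene and barcode, made with Cell Ranger 7.0.0 against mm10/GRCm38 per the submitters' processing notes; the authors' TCR tables hold UMI and read counts per contig. Libraries were 10x 5′, per the labels' protocols. Their totals were 106053410 UMIs (Tc1) and 50713493 (Tc9). Kept barcodes had 500 or more genes and no more than 10% of UMIs from mitochondrial genes, and no doublet caller was run. Scanpy 1.11.5 clustered both libraries together (2000 variable genes without TCR, immunoglobulin and BCL2 family genes, 30 components, 15 neighbours, Leiden resolution 1), and T clusters were clustered again; clusters were named from marker lists, except that T clusters matching no list were called effector CD4 or CD8 by their share of barcodes with Cd4 or Cd8 UMIs. Raw UMIs were summed per class and library. Ratios have exact conditional binomial intervals (95%, scipy 1.17.1), computed with numpy 2.4.6 and pandas 2.3.3 and checked on simulated data. The simulated counts held counting error alone. That check therefore does not cover spread between cells, clonotypes or libraries. With 1 pooled library per group there is no p-value.

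The 8 genes, the lists and the markers were chosen with earlier results of these data known. From each list, the up to 5 genes with the largest effector CD4 ratio among genes of at least 10 CPM were named, plus Il7r and Il2ra, and for each member the 3 most correlated genes were ranked. One list gene that this rule names is not reported here. Alternatives covered UMI gates, resolution 0.6, median-ratio scaling, per-cell means, free-RNA subtraction, stricter filters (5% mitochondrial, 1000 genes), exclusion of mixed or shared-TCR barcodes and thinning to 2000 UMIs; gates within a class, cluster T14 alone, and classes without Cd3 UMIs or without Cd4 or Foxp3 UMIs were added after seeing the data. Promoter windows came from RefSeq (GRCm38.p6).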

Additional observations from a re-analysis of the deposited data

Results flagged for a closer look

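For 3 of the 8 genes the Tc9 over Tc1 ratio was past 1.5-fold upwards in one set of cells and downwards in another. Bcl2 was -1.09 in cluster T11 and 1.37 in cycling cells. Bcl2l1 was -0.66 (-1.47 to 0.11) in the interferon-response cluster T14 and 2.08 in CD8 cells. Bcl2l11 was -0.60 in T11 and 1.503 in Treg-like cells. These are the widest opposite pairs of each gene, the difference was not tested, and each rests on 1 library per group.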

How the results depend on the processing

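No paired analysis was possible because each group is 1 pooled library. Of 72 ratios of the 8 genes, 36 were past 1.5-fold, and 17 of these stayed past it under every alternative run. They include Bcl2 and Bcl2l1 in Treg-like and CD8 cells between libraries and Bcl2, Bcl2l1, Bcl2l11, Bbc3 and Pmaip1 in naive-like against effector CD4 cells. Of all genes, 17.7% to 45.5% were past the fold in the comparisons these ratios come from. The alternatives were run for the listed genes only. No share of all genes can therefore be set beside the 17 or beside the counts under alternatives given below. For Treg-like and CD8 cells, whose main clusters differ between the libraries, no alternative was set to compare the libraries within 1 cluster. Over 704 alternative values, 615 stayed within the counting interval, 84 moved beyond it and 5 turned a ratio past 1.5-fold to the opposite sign; among the 36 ratios within the fold, 30 values had another sign than the one reported. The count in effector CD4 cells was 2, but 5 with UMI gates per barcode, which took in 92 macrophage-like and 185 unnamed Tc1 barcodes, and 1 with gates within the class. The gates over all barcodes put Mcl1 at -1.27. The count in Treg-like cells was 5, but 3 without barcodes holding haemoglobin, macrophage or Pmel UMIs, where 71 Tc1 barcodes were left. Ratios past the fold changed sign for Bcl2l11 in Treg-like cells (-0.0365 with UMI gates), Bbc3 in Treg-like (-0.26) and Pmaip1 in NK-like cells (-0.10), both without those mixed barcodes, Pmaip1 in CD8 (-1.40) and Il2ra in effector CD4 cells (-0.32) after free-RNA subtraction, and Bcl2l1 in cycling cells (-0.40 thinned). The cause was not tested. Free RNA could not be subtracted in Tc9 NK-like cells, where its estimate passed all of the class. Bbc3 rests on 18 UMIs in Tc1 Treg-like cells and on 6 in the Tc1 part of T14.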

Other observations

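Barcodes removed for more than 10% mitochondrial UMIs numbered 125 in Tc1 and 25 in Tc9. Per 1000000 non-mitochondrial UMIs, the removed Tc1 barcodes had 391 Mcl1 and 59.4 Bcl2, against 601 and 89.6 in the kept ones. In Tc9 the removed barcodes had 138 Bcl2l1, from 7 UMIs, against 84.6 in the kept ones. Removed and kept barcodes hold different mixes of cells.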
